A study of Mus musculus with 23 samples.

Results

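The genes described here are Tal1, Tal2, Lyl1, Lmo1, Lmo2, Lmo4, Ldb1 and Tlx1, 8 of the 24475 genes listed for 23 mouse RNA-seq libraries. They were taken by gene symbol as T-cell acute lymphoblastic leukemia (T-ALL) oncogenes of the TAL/LYL/LMO class with their bridging partner Ldb1 and the homeobox oncogene Tlx1, and all 8 were listed. Their levels were read tumor by tumor in T-ALL that arose from wild-type or Notch3-deficient thymus grafts, and in normal thymus.

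In the study, a newborn thymus lobe was grafted under the kidney capsule of a host that cannot supply it with T-cell progenitors, and the graft-derived cells in some hosts progressed to T-ALL. The 14 WT T-ALL libraries came from spleens of BALB/c Rag2-/-Il2rg-/- hosts that carried tumors from a wild-type B6.Ly5.1 donor thymus. The wild-type donors were thus of B6 background, and only the hosts were BALB/c. The 3 Notch3 KO T-ALL libraries came from spleens of the same kind of host with tumors from a Notch3 knockout donor thymus, in which a β-galactosidase gene interrupts the first coding exon. The 6 control libraries were whole thymus of normal C57BL/6 mice, and their ages are not given in the sources used here. All hosts of both T-ALL groups lacked Rag2 and Il2rg, and the controls did not. The spleens were not sorted, so T-ALL libraries hold RNA of host cells beside that of leukemia cells. In the spleen cells used for its exome sequencing, the study reports a large majority of leukemic cells on average. It also reports elevated Tal1, Lyl1 and Lmo2 in individual T-ALL cases beside normal thymus. Organ and host strain changed together with the step from thymus to T-ALL and cannot be told apart from it. Each T-ALL library is named below by its number in the labels.

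TAL1, TAL2 and LYL1 are basic helix-loop-helix proteins that pair with E proteins such as TCF3 and TCF12 and bind E boxes. LMO proteins do not bind DNA: LMO2 joins the helix-loop-helix pair and a GATA factor to LDB1, and LDB1 can pair with itself. The complex is needed for blood stem cells, red cells and megakaryocytes, is normally switched off as thymocytes mature, and drives human T-ALL when it is switched on again. In normal red cell precursors TAL1, LMO2, LDB1 and GATA1 occur together on DNA.

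The promoter windows of Tal1 and Lyl1 are shown because these paralogs were led by different tumors, and that of Pdzk1ip1 because it is the gene just beyond Tal1. Each window runs from 250 bases before to 50 bases after a transcription start, read from RefSeq on GRCm38.p6, the build of the study's mm10. Capitals mark matches on either strand to GATAA, the core of a GATA factor site, or to CANNTG, the E box. The Tal1 window lies on chromosome 4 at chr4:115056176-115056475, plus strand. The Lyl1 window is chr8:84701207-84701506, plus strand, and the Pdzk1ip1 window is chr4:115088458-115088757, plus strand. No Lmo2 window is in the table used.
Tal1: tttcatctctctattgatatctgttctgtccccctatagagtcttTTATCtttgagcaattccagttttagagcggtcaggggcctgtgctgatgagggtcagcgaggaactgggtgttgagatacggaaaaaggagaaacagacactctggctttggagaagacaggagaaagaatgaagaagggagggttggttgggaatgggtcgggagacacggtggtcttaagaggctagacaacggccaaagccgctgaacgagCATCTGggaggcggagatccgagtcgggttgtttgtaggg
Lyl1: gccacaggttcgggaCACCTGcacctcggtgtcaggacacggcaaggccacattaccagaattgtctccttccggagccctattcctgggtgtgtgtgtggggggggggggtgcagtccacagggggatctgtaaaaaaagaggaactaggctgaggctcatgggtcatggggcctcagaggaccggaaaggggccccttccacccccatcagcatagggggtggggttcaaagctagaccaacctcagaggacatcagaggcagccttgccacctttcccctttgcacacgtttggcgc
Pdzk1ip1: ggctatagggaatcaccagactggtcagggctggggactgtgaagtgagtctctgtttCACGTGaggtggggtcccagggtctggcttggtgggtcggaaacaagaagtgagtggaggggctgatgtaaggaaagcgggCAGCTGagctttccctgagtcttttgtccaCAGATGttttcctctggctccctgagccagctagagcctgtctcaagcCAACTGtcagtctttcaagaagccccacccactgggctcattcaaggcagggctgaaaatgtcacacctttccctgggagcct

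The Tal1 window held 1 GATAA match, as TTATC on the printed strand, and 1 E box letter match. The other Tal1 start, at chr4:115057561-115057860, held neither. The Lyl1 window held 0 GATAA matches and 1 CANNTG match, and the Pdzk1ip1 window held 0 and 4. Of 32841 windows in the table, 25.4% held GATAA, 72.3% held CANNTG and 19.4% held both. These letters are common, and a match is not a shown binding site.

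All values are log2(scaled RPKM + 1), where RPKM is read density per length of transcript and per depth of the library, and all libraries were scaled to a common upper quartile. Between 10154 and 11011 genes per library reached a scaled RPKM of 1. The table holds no read counts, and the study's methods give only an approximate average over all libraries, so the depth of a single library is not known. Notch3 had log2 levels of 2.62 to 4.29 in the thymus controls, 3.17 to 5.78 over the WT tumors and 2.59 to 3.74 over the Notch3 KO tumors, so the knockout tumors did not lack its RNA in these unsorted spleens and the labels could not be checked with it. All 9 T-cell markers were present in every group, with a mean log2 level of 7.77 to 8.01 for thymus, 6.73 to 7.88 for WT tumors and 6.84 to 7.37 for Notch3 KO tumors. Of these markers, 4 were called lower in WT and 3 in Notch3 KO T-ALL, and none higher. The 5 thymic epithelium markers had a mean scaled RPKM under 1 in every group, the thymus included. The level of 5 genes chosen after their values were seen divided the libraries into 2 sets that the labels do not name: thymus 5 and 6, WT T-ALL 3, 4, 5 and 7 and all 3 Notch3 KO T-ALL in set A, and the rest in set B.

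Markers of red cell precursors differed strongly between thymus and T-ALL, and stand beside every result below. The mean log2 level of the 11 listed erythroid markers (the erythroid score) was 0.19 to 0.38 for thymus, 2.49 to 5.92 for WT tumors and 4.95 to 7.07 for Notch3 KO tumors, and their summed level was 2.18 to 5.53, 58.1 to 912 and 471 to 2387 scaled RPKM. All 11 were higher in both T-ALL groups than in thymus, and no erythroid marker was at 0 in all libraries of a group. The megakaryocyte score, over 9 markers, was 0.09 to 0.15, 0.49 to 3.21 and 2.35 to 3.36, with 8 of 8 tested markers higher in both T-ALL groups and Gp6 at 0 in all thymus libraries. In such bulk samples, fewer cells of a type and less RNA per cell cannot be told apart.

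Tal1, the helix-loop-helix factor that gives the complex its name, was close to absent in thymus and present in every T-ALL library. In the 6 thymus libraries its log2 level ran from 0 to 0.20 with a median of 0.08. In the 14 WT T-ALL it ran from 1.86 in tumor 128 through a median of 3.16 to 5.05 in tumor 108, and the 3 Notch3 KO T-ALL stood at 3.92, 5.92 and 5.54. No T-ALL library overlapped the thymus, and Notch3 KO tumors 2 and 3 lay above all 14 WT T-ALL. In scaled RPKM the medians were 0.0586, 8.04 and 45.6. Tal1 rose by 3.09 ± 0.37 (SE) in WT T-ALL, with a limma adjusted p of 4.83e-07, and by 5.03 ± 0.53 in Notch3 KO T-ALL, with a limma adjusted p of 2.82e-07.

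**Figure D1:**
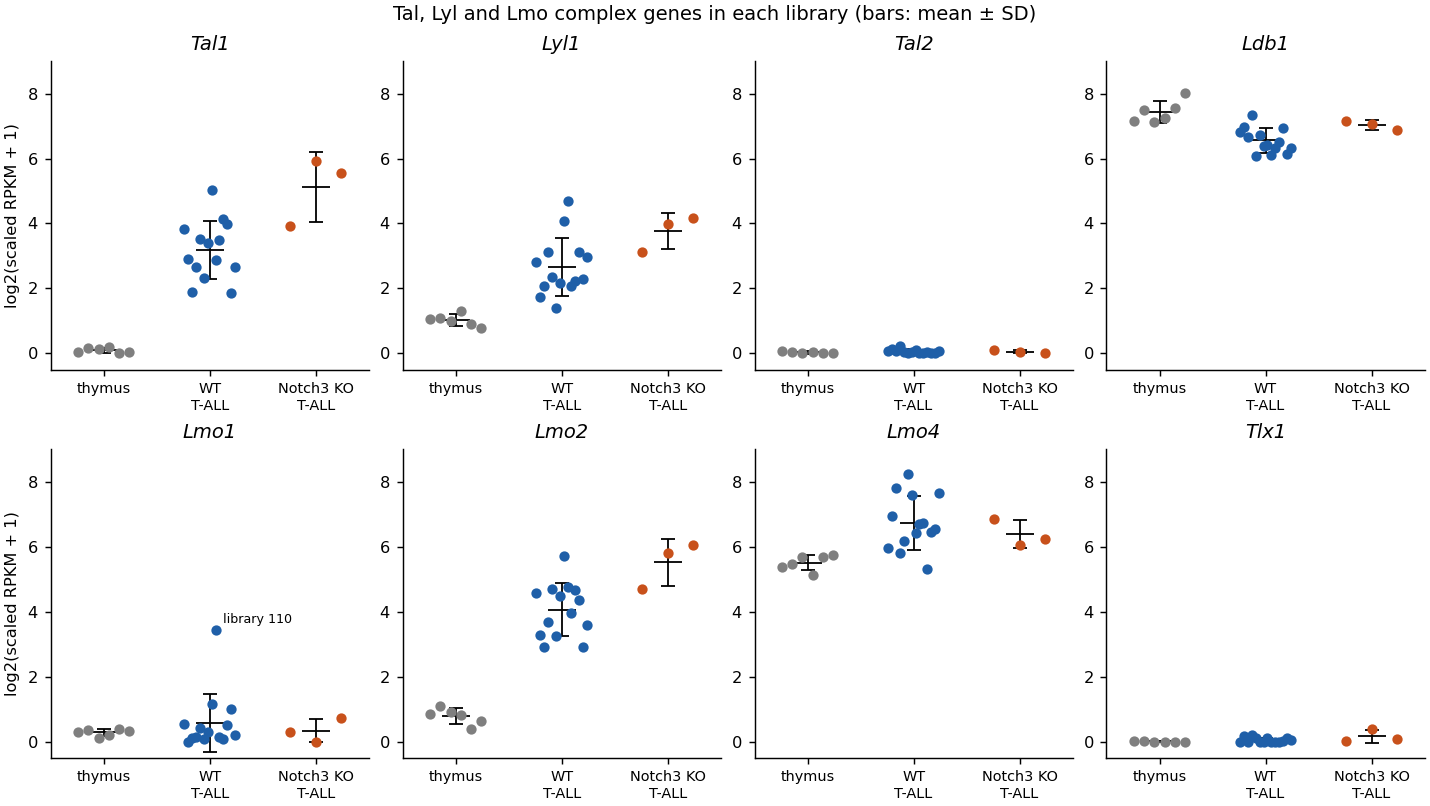
Log2(scaled RPKM + 1) of the 8 genes in each library, 1 point per library, by group (thymus, n = 6; WT T-ALL, n = 14; Notch3 KO T-ALL, n = 3), with a bar at each group mean and the SD as error bar. All T-ALL points of Tal1, Lmo2 and Lyl1 lie above all thymus points, and a single WT T-ALL library stands at 3.42 for Lmo1.

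Lyl1, the paralog of Tal1 that can stand in for it in blood progenitors, was already readable in thymus. Its thymus values ran from 0.79 to 1.32 with a median of 1.02. In WT T-ALL it ran from 1.40 in tumor 36 through a median of 2.33 to 4.68 in tumor 110, and in the Notch3 KO T-ALL it stood at 3.13, 3.99 and 4.18. Again no T-ALL library overlapped the thymus, but tumor 36 was only 0.08 above the highest control. Lyl1 rose by 1.62 ± 0.34 in WT T-ALL (limma adjusted p of 0.000437) and by 2.74 ± 0.50 in Notch3 KO T-ALL (limma adjusted p of 0.000188). Its order of tumors was not that of Tal1: tumor 110 was highest for Lyl1 but had a Tal1 level of 2.87, under the median.

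Tal2, a short relative of Tal1 and an oncogene in rare human T-ALL, did not reach a scaled RPKM of 1 in any library. Its highest log2 level was 0.22, in WT T-ALL 7, against 0.08 in thymus and 0.10 in Notch3 KO T-ALL. The exact permutation test (two-sided) gave p = 0.307 for WT T-ALL against thymus and p = 0.524 for Notch3 KO T-ALL against thymus. A difference in Tal2 was not detectable at these levels.

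Lmo2, the LIM-only protein that links TAL1 to LDB1 in blood cells, was low in thymus and present in every T-ALL library. Thymus values ran from 0.40 to 1.08 with a median of 0.83. WT T-ALL values ran from 2.90 in tumor 5 through a median of 4.17 to 5.70 in tumor 108, and Notch3 KO T-ALL stood at 4.70, 5.81 and 6.04. No T-ALL library overlapped the thymus. Lmo2 rose by 3.28 ± 0.32 (limma adjusted p of 4.01e-08) in WT T-ALL and by 4.74 ± 0.47 (limma adjusted p of 1.29e-07) in Notch3 KO T-ALL. Which of Lmo2 and Tal1 rose more in WT T-ALL depended on the offset: with 0.1 in place of 1 the differences were 4.30 and 5.65. Per transcript length, median Lmo2 (17.1 scaled RPKM) was above median Tal1 (8.04) and Lyl1 (4.03) in WT T-ALL.

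Lmo1, the LIM-only gene that is normally active in nerve cells and is switched on by a translocation in some human T-ALL, was low in all but a few tumors. Thymus values ran from 0.11 to 0.37, and the WT T-ALL median was 0.25. WT T-ALL 110 stood at 3.42, a scaled RPKM of 9.70, WT T-ALL 108 at 1.15 and WT T-ALL 128 at 1.00. The other 11 WT T-ALL were at 0.53 or less, and the Notch3 KO T-ALL were at 0.30, 0 and 0.72. Tumor 110 stood 2.27 above the next tumor and 11.5 scaled median absolute deviations above the WT median. No difference between group means was found by the exact permutation test (two-sided; WT T-ALL minus thymus 0.29, p = 0.537, and Notch3 KO T-ALL minus thymus 0.06, p = 0.702).

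Lmo4, a LIM-only gene found in many epithelia and in thymocytes, was abundant in every group. Thymus ran from 5.13 to 5.73, WT T-ALL from 5.30 in tumor 120 through a median of 6.61 to 8.24 in tumor 36, and Notch3 KO T-ALL stood at 6.86, 6.05 and 6.25. All WT T-ALL but tumor 120 lay above every thymus library, as did all 3 Notch3 KO T-ALL. Lmo4 rose by 1.23 ± 0.32 in WT T-ALL (limma adjusted p of 0.00268). The difference in Notch3 KO T-ALL was 0.88 ± 0.46, which missed the threshold (limma adjusted p of 0.136). This call too depended on the fit, since it passed with only these groups in the model (limma adjusted p of 0.00448), and the exact permutation test (two-sided) gave p = 0.0119, the smallest it can give here. Within library set A the WT T-ALL difference was 0.93 (limma adjusted p of 0.248), not called.

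Ldb1, the bridging protein without which the complex does not form, was the only tested member that was lower in T-ALL. Thymus ran from 7.13 to 8.01 with a median of 7.37. WT T-ALL ran from 6.09 in tumor 14 through a median of 6.47 to 7.35 in tumor 7, and Notch3 KO T-ALL stood at 7.15, 7.07 and 6.87. All WT T-ALL but tumor 7 lay below every thymus library. Ldb1 fell by 0.88 on the log2 scale in WT T-ALL (SE 0.17, limma adjusted p of 0.000165), from a mean of 176 to 96.1 scaled RPKM. This call was lost within library set A, with a replicate block, and with the erythroid or neutrophil score as a covariate, as given below. The difference in Notch3 KO T-ALL was -0.41 ± 0.24 (limma adjusted p of 0.196), and its call depended on the fit: with a term for library set it was -0.77 (adjusted p of 0.00482) and after quantile normalization -0.78 (adjusted p of 0.0297). Among the 8 genes Ldb1 had the highest mean level in Notch3 KO T-ALL, 130 scaled RPKM, followed by Lmo4 at 85.2, Lmo2 at 48.3 and Tal1 at 39.8.

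Tlx1, a homeobox gene that marks another class of human T-ALL and is silent in normal thymus, was low in all libraries. Its highest log2 level was 0.40, in Notch3 KO T-ALL 2, where the other Notch3 KO T-ALL stood at 0.03 and 0.06, against 0.03 in thymus and 0.19 in WT T-ALL. For Notch3 KO T-ALL minus thymus the difference was 0.16 and the exact permutation test (two-sided) gave p = 0.0238, on levels under a scaled RPKM of 0.32 throughout. The smallest p this test can give for 3 against 6 libraries is 0.0119.

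Counted over the members, 5 passed the filter on low values in each comparison and the other 3, Tal2, Lmo1 and Tlx1, did not. Against thymus, 4 of these 5 were higher and 1 lower in WT T-ALL, where 51.6% of all 11919 genes tested were called, 29.3% higher and 22.3% lower. The Notch3 KO tumors had 3 of 5 higher, where 37.5% of all genes were called, 21.2% higher and 16.3% lower. Without overlap, 3 members lay above thymus in WT T-ALL (background 8.42%) and 4 in Notch3 KO T-ALL (background 23.9%), and none lay wholly below it (background 6.64% and 18.4%). The median difference of the 5 was 1.62 and 2.74, against 0.08 over all genes in both comparisons. The filter keeps a gene that is high in 1 group only, so these counts say nothing of the 3 members that it left out. Both comparisons used the same 6 controls.

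The comparison of Notch3 KO with WT T-ALL asked whether tumors that arose without donor Notch3 used these genes to another extent. None of the 5 tested members was called, where 0.617% of 11677 genes were, 0.591% higher and 0.0257% lower (limma, adjusted p under 0.05). Unadjusted, 4 of 5 were under 0.05 in limma, as were 994 of the 11677 genes, and 2 of 5, Tal1 and Lmo2, in the exact permutation test. Tal1 differed by 1.94 (95% interval 0.80 to 3.08, limma adjusted p of 0.121) and Lmo2 by 1.46 (0.47 to 2.45, adjusted p of 0.197). Lyl1 differed by 1.12 (0.07 to 2.17, limma adjusted p of 0.528), Ldb1 by 0.47 (0.0046 to 0.94, adjusted p of 0.579) and Lmo4 by -0.35 (-1.32 to 0.62, adjusted p of 0.978). The Tal1 difference passed without WT T-ALL 108 (2.09, limma adjusted p of 0.0332), without Notch3 KO T-ALL 1 (2.55, adjusted p of 0.0358), and with thymus in the fit (adjusted p of 0.0303). Within library set A, which holds all 3 Notch3 KO and 4 WT T-ALL, the differences were 2.30 for Tal1 (limma adjusted p of 0.154) and 1.91 for Lmo2 (adjusted p of 0.13). The 3 Notch3 KO T-ALL had erythroid scores of 4.95, 7.07 and 6.34, in which Notch3 KO T-ALL 1, with the lowest Tal1, was also lowest.

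The erythroid score moved with Tal1 and Lmo2 in all 3 comparisons, so the fits were repeated with this score as a covariate. In WT T-ALL against thymus, the Tal1 difference was then -0.025 ± 0.45 (limma adjusted p of 0.984) and that of Lmo2 0.73 ± 0.47 (adjusted p of 0.391). Lyl1 stood at 0.69, Lmo4 at 1.98 and Ldb1 at -0.28, and 0 of the 5 passed, with Lmo4 under 0.05 unadjusted. For Notch3 KO T-ALL against thymus, Tal1 stood at 0.24 and Lmo2 at 0.82, with limma adjusted p of 0.936 and 0.741, and 0 of 5 passed even unadjusted. No thymus score fell within the T-ALL range, so in these fits score and group could hardly be separated: 502 genes were called in WT T-ALL against 6150 without the covariate, and 40 against 4475 in Notch3 KO T-ALL. Within T-ALL, the score of Notch3 KO T-ALL 1 fell in the WT range and those of Notch3 KO T-ALL 2 and 3 above it, so score and group were only partly separable there too. The Tal1 difference between Notch3 KO and WT fell from 1.94 to 0.26 ± 0.37 and that of Lmo2 from 1.46 to 0.09 ± 0.38.

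With the megakaryocyte score in place of the erythroid score, Tal1 (1.97), Lmo2 (2.30) and Lmo4 (1.86) were still higher and Ldb1 (-0.85) still lower in WT T-ALL, with limma adjusted p of 0.00145, 0.000115, 0.00262 and 0.0141, whereas Lyl1 (0.72, adjusted p of 0.211) was not called. Over all genes 3052 were called in this fit, against 6150 without the covariate. None of the 5 was called in Notch3 KO T-ALL under this covariate, with Tal1, Lmo2 and Lmo4 under 0.05 unadjusted, and only 163 of all 11919 genes were called, against 4475. With a neutrophil score, an alternative added after the data were seen, the rise of Lyl1 in WT T-ALL dropped from 1.62 to 0.53 (limma adjusted p of 0.296), while that of Tal1 was 2.86 (adjusted p of 0.000276) and that of Lmo2 2.57 (adjusted p of 8.48e-05). Ldb1 (-0.52, limma adjusted p of 0.0789) was not called either, and 3308 genes were called in all. In Notch3 KO T-ALL against thymus, where Notch3 KO T-ALL 2 had a neutrophil score within the thymus range, Lyl1 was called with this covariate (1.84, limma adjusted p of 0.00345), as were Tal1 and Lmo2. The neutrophil score was 2.49 to 4.57 in thymus and 5.40 to 11.97 in WT T-ALL, with 6 of 6 markers higher and a summed level of 55.4 to 521 and 624 to 82007 scaled RPKM. As with the erythroid score, the megakaryocyte scores of thymus and T-ALL and the neutrophil scores of thymus and WT T-ALL did not overlap.

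**Figure D2:**
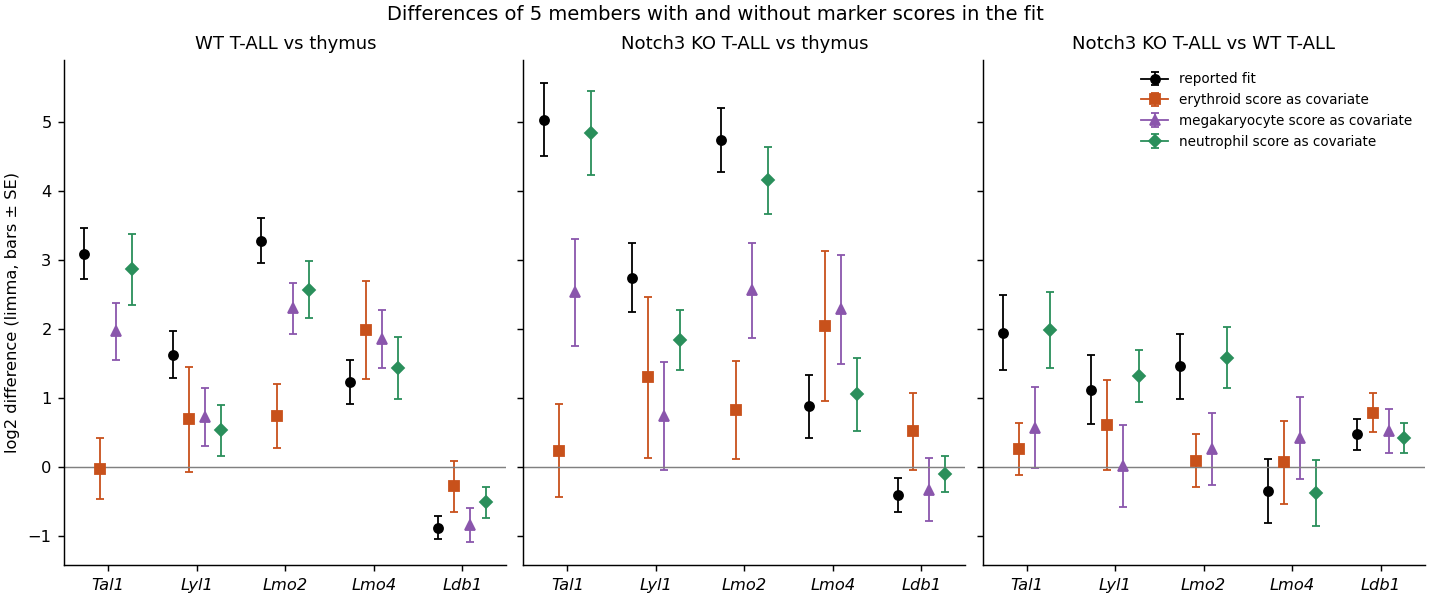
Log2 difference of Tal1, Lyl1, Lmo2, Lmo4 and Ldb1 (points) with its SE (lines) in each of the 3 comparisons, without a covariate and with the erythroid, megakaryocyte or neutrophil score in the limma model. The Tal1 difference between WT T-ALL and thymus moves from 3.09 to -0.025 with the erythroid score, and that of Lyl1 from 1.62 to 0.53 with the neutrophil score.

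Gata1, the GATA factor that sits with TAL1 on DNA in red cell precursors, stayed near the log2 level of Tal1 in tumors. Its log2 level was 0.58 to 0.73 in thymus, 1.98 to 4.75 with a median of 3.22 over the WT tumors, and 3.98, 5.25 and 5.58 in the Notch3 KO tumors. Tal1 minus Gata1 was 0.01 ± 0.30 (SD, n = 14) in WT T-ALL, between -0.45 and 0.49, and 0.19 ± 0.42 (SD, n = 3) in Notch3 KO T-ALL. Lmo2 minus Gata1 was 0.88 ± 0.41 and 0.58 ± 0.13 in these groups. Lyl1 minus Gata1 spread far more, at -0.53 ± 0.91 in WT T-ALL, from -1.73 to 1.36.

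Across the 14 WT T-ALL, 25 correlations were computed among the 5 testable members and with the erythroid, megakaryocyte and T-cell scores, and 4 passed Benjamini-Hochberg adjustment of the permutation p of Pearson's r. Tal1 and Lmo2 rose and fell together, with r = 0.90 (adjusted permutation p = 0.00075) and Spearman's rho = 0.80 (adjusted p = 0.0173). Without tumors 108 and 128, the farthest from the Tal1 median, r was 0.81, and within library set B it was 0.88. Their highest 5 tumors shared 4: tumors 3, 14, 108 and 120. After removal of a straight line on the erythroid score from both, r was 0.68.

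Tal1 also followed the erythroid score, with r = 0.85 (adjusted permutation p = 0.00188) and rho = 0.78 (adjusted p = 0.0173), 0.77 without tumors 108 and 128 and 0.90 within set B. Lmo2 followed it with r = 0.81 (adjusted permutation p = 0.005) and rho = 0.71 (adjusted p = 0.0533). Without tumors 5 and 108 the Lmo2 value was 0.64, and without tumor 108 alone it was 0.72 with an adjusted p of 0.0627, so this call rests on that tumor. Within set B it was 0.81. Set A holds only 4 WT T-ALL, too few for a value. Both axes were read from the same unsorted spleens, and the part of host cells in the result was not tested.

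**Figure D3:**
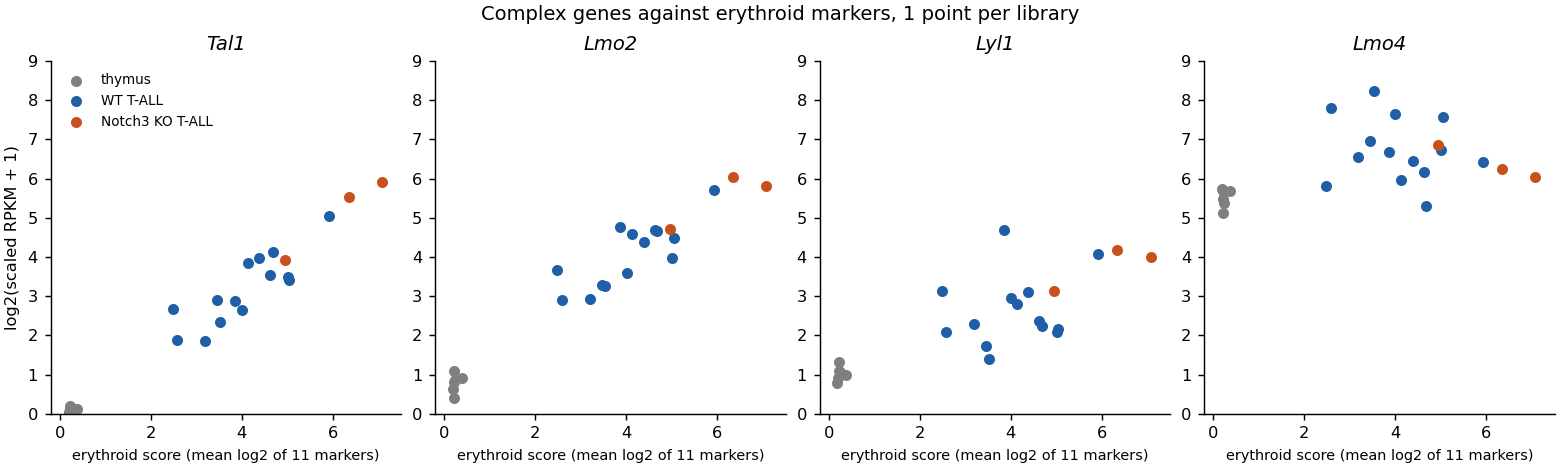
Log2 level of Tal1, Lmo2, Lyl1 and Lmo4 (vertical axes) against the erythroid score, the mean log2 level of 11 red cell precursor markers (horizontal axis), 1 point per library, colored by group. Over the 14 WT T-ALL, r was 0.85 for Tal1, 0.81 for Lmo2, 0.22 for Lyl1 and -0.19 for Lmo4.

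Lyl1 did not pass with Tal1 (r = 0.36, adjusted permutation p = 0.36) or with the erythroid score (r = 0.22, adjusted p = 0.575). With Lmo2 it had r = 0.61 (adjusted permutation p = 0.0729), which was 0.35 without tumors 108 and 110. Its only passing relation in this family was inverse, with the T-cell score (r = -0.67, adjusted permutation p = 0.0471, and rho = -0.51, adjusted p = 0.169). Without tumors 108 and 110, the ones with the highest Lyl1, that r was -0.37. The call was also lost in 9 of the 14 fits that left out 1 tumor, with an adjusted permutation p of up to 0.147.

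In a further family of 24 correlations, added after the data were seen, Lyl1 rose with the mast cell and basophil score (r = 0.90, adjusted permutation p = 0.00072), the neutrophil score (r = 0.84, adjusted p = 0.00312) and the macrophage score (r = 0.77, adjusted p = 0.0048). The rho of these was 0.71, 0.75 and 0.64, with adjusted p of 0.0254, 0.0199 and 0.0517. Without tumors 110 and 108 the values of r were 0.64, 0.52 and 0.64, and within set B they were 0.95, 0.91 and 0.81. The summed mast cell and basophil markers were at 0.96 to 7.51 scaled RPKM in thymus, with Fcer1a at 0, and at 2.05 to 168 in WT T-ALL, where 2 of 4 tested markers were called higher. The macrophage markers summed to 5.60 to 43.6 and 15.4 to 285, with 5 of 6 higher. Their part in the Lyl1 values was not tested. Lmo1, which was under the filter on low values, was included in this family and rose with the neutrophil score too (r = 0.88 and rho = 0.94). Both had an adjusted permutation p of 0.00024, the smallest these permutations can give for 24 relations. Without tumors 110 and 108 this r was 0.85. Lmo1 reached a scaled RPKM of 1 in only 2 of the 14 WT T-ALL, tumors 110 and 108. Each Lmo1 value of r without those tumors thus rests on levels under 1, at most 0.99. Lmo1 also passed with the mast cell and basophil score (r = 0.81, adjusted permutation p = 0.0048, or 0.35 without those tumors). With the macrophage score it passed as well (r = 0.59, adjusted permutation p = 0.0314, or 0.53 without them). Lmo2 passed with the mast cell and basophil score (r = 0.68, adjusted permutation p = 0.0191, and rho = 0.63, adjusted p = 0.057), at r = 0.44 without those tumors. Tal1 passed with none of the 4 added scores.

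Lmo4 ran against Tal1 and Lmo2 without passing, at r = -0.53 (adjusted permutation p = 0.154) and r = -0.49 (adjusted p = 0.175), and shared none of its 5 highest tumors with either. Ldb1 had r = -0.03 with Tal1 (adjusted permutation p = 0.931). After removal of a straight line on the erythroid score from both genes, Tal1 had r = 0.74 with Ldb1 and -0.70 with Lmo4, and Lyl1 had r = 0.75 with Lmo2. The unadjusted permutation p of these, the largest values among member pairs, were 0.00286, 0.00666 and 0.00167. Ldb1 itself had r = -0.45 with the erythroid score (adjusted permutation p = 0.227), but 0.07 within set B. There Tal1 and Ldb1 had r = 0.28 with no line removed. The relation of Tal1 to Ldb1 over all WT T-ALL thus depended on whether the erythroid score was taken out. This removal was not repeated within a set.

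**Figure D4:**
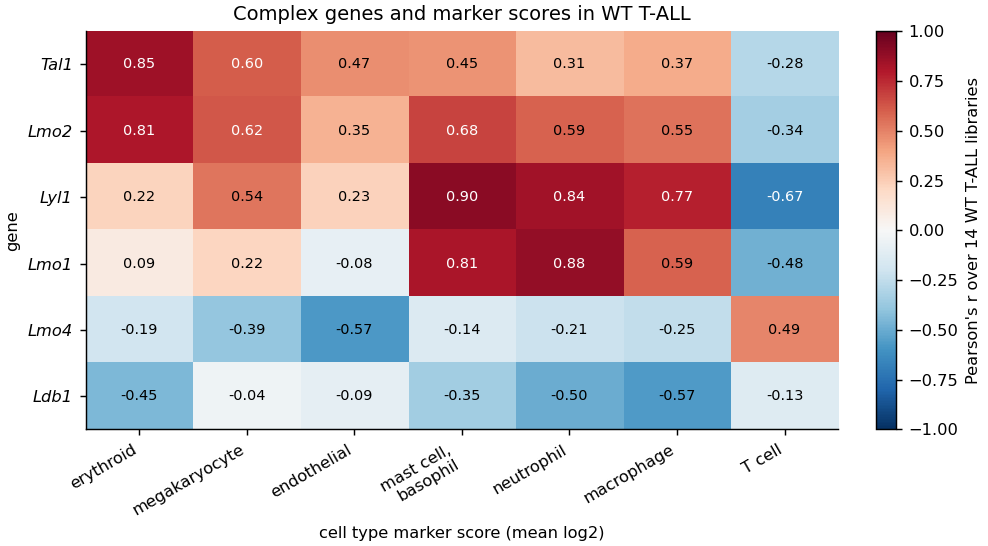
Pearson's r over the 14 WT T-ALL between each of 6 members and the scores of 7 cell types, as a colored grid with the value in each cell. Tal1 and Lmo2 are highest with the erythroid score (0.85 and 0.81), Lyl1 with the mast cell and basophil score (0.90) and Lmo1 with the neutrophil score (0.88). Lmo1 reached a scaled RPKM of 1 in only 2 of the 14 WT T-ALL.

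The genes most like each member were ranked by r over the 14 WT T-ALL among 7872 genes with a mean scaled RPKM of at least 5. For Tal1 these were Add2 (r = 0.96), which encodes a membrane skeleton protein of red cells, Ermap (0.95), a red cell surface protein that is also in the erythroid list, Gata1 (0.94) and Cpox (0.94), an enzyme of heme synthesis. Lmo2 was at rank 16 for Tal1. For Lmo2 they were Gclm (0.97), an enzyme of glutathione synthesis, Rab3il1 (0.92), Blvrb (0.91), a biliverdin reductase of red cells, and Tal1 (0.90).

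For Lyl1 the list opened with Spi1 (r = 0.97), the PU.1 factor of myeloid cells, followed by Nfam1 (0.96) and Fes (0.95). For Lmo4 it opened with Il2ra (0.89), the interleukin 2 receptor alpha chain, and Pde4b (0.86), followed by Ace and Smurf2 (both 0.84). For Ldb1 the most alike was Mib2 (0.90). These rankings over 14 unsorted libraries, whose marker scores vary widely, are given as a description.

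Some tumors stood apart. WT T-ALL 108 was highest of all WT T-ALL for Tal1 (5.05) and Lmo2 (5.70), the next to highest for Lyl1 (4.07) and Lmo1 (1.15), and it also had the highest erythroid (5.92) and megakaryocyte (3.21) scores of the WT T-ALL. WT T-ALL 110 was highest for Lyl1 (4.68) and Lmo1 (3.42), while its Lmo2 was 4.76 and its Tal1 2.87. Tumor 110 had the lowest T-cell score of the 23 libraries, 6.73, the highest neutrophil score, 11.97, and the highest mast cell and basophil score, 4.73, followed by tumor 108 at 4.42. Myeloid genes were high there too, with Spi1 at 6.49 and Gata2, the GATA factor of progenitors and mast cells, at 2.91.

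Lmo1 was at rank 58 among the genes by the gap between tumor 110 and the highest of the other T-ALL. The widest gaps were those of Tex11 (5.20, listed at 0 in all other T-ALL), a meiosis gene on chromosome X, Nov (3.92), Ear6 (3.71), an eosinophil ribonuclease with near-identical paralogs, and Akr1c18 (3.34). The genes around Lmo1 on chromosome 7, Tub, Ric3, Stk33 and Trim66, were at 0.32 or less in all WT T-ALL, and in tumor 110 at 0.01, 0.13, 0 and 0.05. None of these 4 neighbors was high in the tumor with the high Lmo1.

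**Figure D5:**
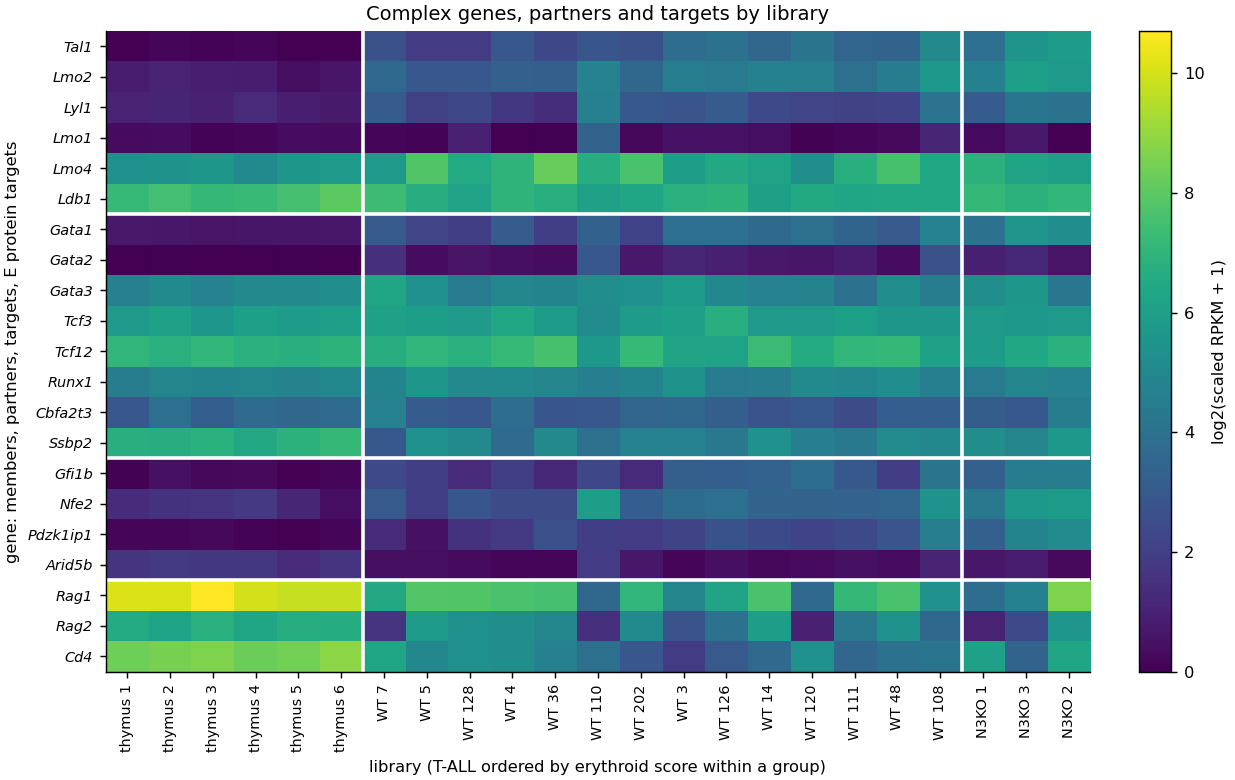
Log2(scaled RPKM + 1) of 6 members, 8 partners, 4 target genes and 3 E protein targets (rows) in each of the 23 libraries (columns, by group, T-ALL in order of the erythroid score), with color from dark (0) to yellow (highest). Tal1, Lmo2 and Gata1 grow lighter toward tumors with a high erythroid score, Lmo1 stands out in WT T-ALL 110 at 3.42, and Ssbp2, Rag1 and Cd4 are darker in T-ALL than in thymus.

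Of 14 listed partners of the complex, 12 could be tested. In WT T-ALL, 2 rose, Gata1 (2.51 ± 0.34, limma adjusted p of 2.49e-06) and Gata2 (0.98, adjusted p of 0.0111), 1 fell and 9 did not pass, with a median of 0.04. These shares are below the 51.6% called over all genes. The one that fell was Ssbp2, which binds LDB1 and protects it from breakdown: it fell by 2.18 on the log2 scale (limma adjusted p of 8.35e-07), from 6.47 to 7.14 in thymus to 2.96 to 5.43 in WT T-ALL, without overlap. Among those that did not pass were the helix-loop-helix partners Tcf3 (difference 0.00078) and Tcf12 (-0.13), and Gata3 (0.07), the GATA factor of T cells. In Notch3 KO T-ALL, Gata1 rose by 4.27 and Ssbp2 fell by 1.49 on the log2 scale (limma adjusted p of 0.00445), and Gata2 stood at 0.88 (adjusted p of 0.125). None of the 12 was called between Notch3 KO and WT T-ALL (limma), where Gata1 differed by 1.76 (adjusted p of 0.127).

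Of 9 listed target genes of TAL1 or LMO2, 8 could be tested, and 3 rose and 1 fell in each T-ALL group, a share near the 51.6% of all genes called in WT and the 37.5% in Notch3 KO T-ALL. Those that rose were Gfi1b, by 2.30 in WT and 3.91 in Notch3 KO T-ALL, Nfe2, by 2.17 and 3.95, and Pdzk1ip1, by 2.07 and 4.27. Arid5b, a T-ALL target of TAL1, fell by 1.14 and 1.04 on the log2 scale. Cdk6, Hhex, Kit and Trib2 did not pass in either group. The list's median difference was 0.66 in WT and 0.46 in Notch3 KO T-ALL, against 0.08 over all genes.

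TAL1 and LYL1 can take E proteins away from thymocyte genes, so such genes were read as well. Rag1, Rag2 and Cd4 fell in both T-ALL groups, without overlap with thymus, and Ptcra, the pre-T-cell receptor chain, did not pass. Cd4 fell by 4.30 on the log2 scale in WT and by 3.24 in Notch3 KO T-ALL, and Rag1 fell by 3.63 and 4.37. Thymus holds mostly double-positive thymocytes, which express these genes, and the hosts carry no functional Rag2. What part cell stage has in these values was not tested.

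Of the genes next to Tal1 on chromosome 4, Stil lies 13223 bp before it and Pdzk1ip1 16953 bp after it. A deletion that joins Stil to Tal1 is a known cause of human TAL1 activation. Stil itself was higher by 0.84 in WT T-ALL (limma adjusted p of 0.00137) and by 0.83 in Notch3 KO T-ALL (adjusted p of 0.0281), and its r with Tal1 over the WT T-ALL was -0.22. Pdzk1ip1, a membrane protein gene that shares an erythroid enhancer with Tal1, had r = 0.79. It was at 0.22 or less in thymus, and its tumor values ran from 0.49 to 4.57 (WT) and from 3.26 to 5.16 (Notch3 KO). Cmpk1, before Stil, differed by 0.10 (limma adjusted p of 0.579), and Cyp4x1, past Pdzk1ip1, was listed at 0.05 or less in all libraries. The deposited gene values hold no fusion reads, so a joined transcript was not looked for.

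Beside Lyl1 on chromosome 8, Trmt1, 1615 bp before it, was higher by 0.67 in WT T-ALL (limma adjusted p of 9.24e-05) but ran opposite to Lyl1 across tumors, with r = -0.54. Nfix, on the other side, overlaps only the last few bases of Lyl1 in the annotation. It differed by 0.10 in WT T-ALL (limma adjusted p of 0.672) and by 0.94 in Notch3 KO T-ALL (adjusted p of 0.00744). Beside Lmo2 on chromosome 2, Lincred1, an RNA gene 43935 bp before it, was listed at 0 in all thymus libraries and was higher by 1.94 in Notch3 KO T-ALL (limma adjusted p of 0.000229). In WT T-ALL its difference was 0.50 (adjusted p of 0.0951). Fbxo3, 45921 bp after Lmo2, fell by 0.51 on the log2 scale in WT T-ALL (limma adjusted p of 0.00433) and differed by 0.012 in Notch3 KO T-ALL (adjusted p of 0.968).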

How the data were processed

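RNA-seq of 23 mouse libraries (KAPA stranded mRNA kit) was used as 1 deposited table. The authors aligned reads to mm10 with OSA in ArrayStudio, and the deposited values are log2(RPKM + 1) after scaling each library to a common upper quartile of RPKM. Differences on this scale understate changes of low genes. The aligner's version and the read counts per library are not given in the sources used here, so precision comes from the spread between libraries only. Groups came from the labels, and per the study's methods and legends each library stands for a mouse. In the table, 27 symbols turned into dates were restored, and 24375 genes were matched to RefSeq on GRCm38.p6.

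Genes that reached a scaled RPKM of 1 in 3 or more libraries were tested with limma 3.58.1 (R 4.3.3; lmFit, eBayes with trend and robust) with Benjamini-Hochberg adjustment and a threshold of 0.05. All 3 groups entered the fit against thymus (11919 genes), and the T-ALL libraries alone that of Notch3 KO against WT (11677 genes). Members under the filter were tested by exact permutation (two-sided). Correlations used 100000 permutations. Replicates of a group correlated at r = 0.836 to 0.995 over genes, and none were identical. Python 3.11.15, numpy 2.4.6, scipy 1.17.1, pandas 2.3.3 and matplotlib 3.10.9 were used. The steps were tested on simulated data with 200 changed genes. A score is the mean log2 value of a marker list.

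The text names the 8 members, the genes of the lists of partners, targets and other oncogenes, the 4 genes with the highest r to each member, the 4 widest gaps in a tumor that stands at least 1 above the next, the 2 nearest listed genes on each side of Tal1, Lyl1, Lmo1 and Lmo2, and marker genes. Some genes that these rules name are not reported here. The members and lists were chosen with earlier results of these data known. Alternatives were an offset of 0.1, quantile normalization, filters, other groups in the fit, score covariates, library sets, a replicate block and leaving out each library.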

Additional observations from a re-analysis of the deposited data

How the results depend on the processing

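In WT T-ALL against thymus all 5 tested members were called whichever library was left out (5 to 5), under an offset of 0.1, quantile normalization, no filter or a filter at 5, and within set B. The count was 0 with the erythroid score as a covariate, 3 with the neutrophil score and 3 within set A, where 4 WT T-ALL face 2 thymus libraries and Lmo4 (0.93, limma adjusted p of 0.248) and Ldb1 (-0.84, adjusted p of 0.0724) were not called. Over all genes these fits called 502, 3308 and 1555, against 6150. In Notch3 KO T-ALL against thymus it was 3 whichever library was left out (3 to 3), and 0 with the erythroid and 0 with the megakaryocyte score. Ldb1 passed there under quantile normalization and with a library set term, Lmo4 with only 2 groups in the fit (0.88, adjusted p of 0.00448), and Tlx1, which the filter otherwise removed, with no filter. Between Notch3 KO and WT T-ALL the count was 0 to 1 over libraries left out (1, Tal1, without WT T-ALL 108 or Notch3 KO T-ALL 1) and 1 with thymus in the fit. Over all genes that comparison called 72, but 39 with an offset of 0.1, 134 with no filter, 6 with a filter at 5, 254 with thymus in the fit, 159 with a set term, 13 within set A and 10 and 4 with the erythroid and megakaryocyte scores. Differences that changed sign were Tal1 in WT T-ALL (-0.025) and Ldb1 in Notch3 KO T-ALL (0.51) with the erythroid score, and Lmo4 between Notch3 KO and WT T-ALL with the erythroid (0.063) or megakaryocyte score (0.42), where the cause was not tested. Of the 25 correlations, 2 (without WT T-ALL 108) to 7 (without WT T-ALL 120) passed when 1 tumor was left out. Thymus and T-ALL libraries share replicate numbers, but same-numbered libraries did not deviate together (correlations of -0.24 to 0.15). With a replicate block 4 members were called in WT T-ALL (2926 genes in all, Ldb1 -0.49 with limma adjusted p of 0.0961) and 4 in Notch3 KO T-ALL (3643 genes, Lmo4 1.07 with adjusted p of 0.0451). The gap of Lmo1 in WT T-ALL 110 was 2.27, 2.89 with an offset of 0.1 and 2.53 after quantile normalization, both chosen after the data were seen.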

Other observations

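Other transcription factor oncogenes of T-ALL were also read. Of 14 listed, 4 could be tested, and 3 were called in WT and 2 in Notch3 KO T-ALL, where 51.6% and 37.5% of all genes were. Myb, which is needed by early thymocytes and acts beside TAL1 in human T-ALL, fell by 1.00 on the log2 scale in WT and by 1.35 in Notch3 KO T-ALL. Mycn fell by 0.91 and 0.95 on that scale. Spi1 rose by 1.53 in WT T-ALL (limma adjusted p of 0.0178), and in Notch3 KO T-ALL the difference was 1.49 (adjusted p of 0.123). Erg did not pass in either group (0.10 and 0.07, limma adjusted p of 0.818 and 0.925). Tlx2, Tlx3 and Olig2 were listed at 0 in every library. Hoxa9 was at 0.20 or less, Meis1 at 0.99 or less and Mef2c at 1.43 or less in the highest library.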
